A study of Mus musculus with 48 samples.

Results

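The nuclear genes that build the mitochondrial respiratory chain were followed in mouse kidneys after subtotal nephrectomy or sham surgery. They were chosen by symbol: every gene starting Nduf, Uqcr, Cox4 to Cox8 or Atp5, and Sdha to Sdhd, leaving out the fat and muscle forms Cox6a2, Cox7a1 and Cox8b. No expression value entered that choice of genes. It gave 87 of the 18193 genes that had a probe set with a single gene symbol, each read by its single-symbol probe set with the highest mean. Of these, 36 belong to complex I, 4 to complex II, 8 to complex III, 14 to complex IV and 17 to complex V (ATP synthase), and 8 are Ndufaf genes, whose products help to build complex I. The filter on low values left 82 genes, all 82 above the filter value of 2.28 on the log2 scale on all 48 arrays. The other 5 (Ndufa4l2, Ndufb4, Cox4i2, Cox7b2 and Cox8c) lay at or near the lowest value of the table, with a highest value of 2.59, and were not tested. The symbols Ndufa11, Ndufs6 and 6 others occur only on probe sets with several gene symbols and are not described.

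The respiratory chain sits in the inner mitochondrial membrane. Complexes I and II pass electrons from NADH and succinate to ubiquinone, complex III passes them to cytochrome c, complex IV passes them to oxygen, and ATP synthase uses the proton gradient that complexes I, III and IV build. Kidney tubules, above all the proximal tubule and the thick ascending limb, are rich in mitochondria and spend much ATP on sodium transport. The subunits encoded by mitochondrial DNA fall outside the symbols listed above.

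Mice of the strains FVB and C57BL/6 (written B6) were 9 weeks old when they underwent subtotal nephrectomy (Nx), which removes most of the renal mass, or a sham operation, and their kidneys were taken at day 2, day 28 or day 53. The series describes FVB as prone to kidney lesions and B6 as not prone to them. The 12 groups are FVB Nx, FVB sham, B6 Nx and B6 sham at each day, each with 4 mice and 1 Affymetrix array per mouse, so the 48 values of a gene come from separate animals. No transgene, deletion or drug is part of any group, and sex is not stated in the labels. Values are on the log2 scale as deposited, and a log2 fold change is always Nx over sham unless another pair is named. Calls rest on limma fitted over 13174 genes and all 48 arrays, with p-values adjusted over those genes by the Benjamini-Hochberg method and 0.05 as the threshold. Whole-kidney RNA was measured, so fewer cells of a type and less RNA per cell cannot be told apart. Kidney markers were present throughout: the mean over 10 proximal tubule genes was between 11.40 and 12.84 in FVB Nx kidneys and between 12.78 and 12.97 in FVB sham kidneys. RNA of other tissues was present as well. The mean over the pancreatic enzyme genes passed 5 in 16 of 24 Nx kidneys and in 3 of 24 sham kidneys, and the mean over skeletal muscle genes passed 4 in 3 Nx kidneys (FVB day 28 mouse 3 and FVB day 53 mice 7 and 8) and in 0 sham kidneys.

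Promoters of these genes are known for binding sites of the transcription factors Nrf1, Gabpa, Esrra and Yy1, whose partner Ppargc1a (PGC-1 alpha) is a main activator of mitochondrial genes. RefSeq windows (build GRCm38.p6, 250 bases before to 50 bases after the gene start) matched 72 of the 87 genes by gene identifier. Each motif was searched on both strands, and all 27025 genes with a window served for comparison. A gene counts once if any of its windows holds the motif. The Nrf1 core GCGCATGC occurred in 11 of the 72 genes (15.28%) and in 3.049% of all genes with a window. Where 2 more bases complete a palindrome, the match on the other strand overlaps it. The Gabpa (ETS) core CCGGAAG occurred in 19 genes (26.39%) and in 9.928% of all genes with a window. For the Yy1 core ATGGCGG these were 11 (15.28%) and 4.692%, and for the Esrra core AAGGTCA 8 (11.11%) and 5.38%. At least 1 of the 4 motifs occurred in 38 genes (52.78%) and in 20.5% of all genes with a window. A window from each complex is printed to show these motifs in genes that were lower in FVB Nx kidneys at day 53, with the matches in capitals. Each is the gene of its complex with the most kinds of motif and then the smallest p, a choice made after the values were known.
Ndufa9 (chr6:126849095-126849394, minus strand): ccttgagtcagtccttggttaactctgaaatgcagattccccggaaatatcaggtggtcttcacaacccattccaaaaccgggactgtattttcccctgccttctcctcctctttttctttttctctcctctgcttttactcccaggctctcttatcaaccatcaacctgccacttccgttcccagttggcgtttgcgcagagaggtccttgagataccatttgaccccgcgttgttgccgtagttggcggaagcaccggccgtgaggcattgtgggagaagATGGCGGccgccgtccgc
Sdhb (chr4:140961021-140961320, plus strand): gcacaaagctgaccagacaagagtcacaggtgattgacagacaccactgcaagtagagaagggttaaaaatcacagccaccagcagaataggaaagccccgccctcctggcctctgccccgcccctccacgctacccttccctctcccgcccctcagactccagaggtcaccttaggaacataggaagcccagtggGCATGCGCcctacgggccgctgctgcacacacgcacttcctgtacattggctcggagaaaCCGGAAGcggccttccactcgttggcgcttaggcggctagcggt
Uqcr11 (chr10:80406772-80407071, minus strand): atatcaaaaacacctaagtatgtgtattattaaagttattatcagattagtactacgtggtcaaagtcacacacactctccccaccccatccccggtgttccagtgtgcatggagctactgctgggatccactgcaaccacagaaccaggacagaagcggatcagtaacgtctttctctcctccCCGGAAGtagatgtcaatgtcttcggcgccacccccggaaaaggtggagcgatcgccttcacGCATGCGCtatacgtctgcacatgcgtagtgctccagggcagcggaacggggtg
Cox6a1 (chr5:115348909-115349208, minus strand): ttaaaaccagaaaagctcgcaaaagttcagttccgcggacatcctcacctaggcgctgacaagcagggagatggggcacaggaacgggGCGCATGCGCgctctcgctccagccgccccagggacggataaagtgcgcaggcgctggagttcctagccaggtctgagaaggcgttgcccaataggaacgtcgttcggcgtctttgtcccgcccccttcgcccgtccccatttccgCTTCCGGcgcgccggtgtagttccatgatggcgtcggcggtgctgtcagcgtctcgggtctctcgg
Atp5k (chr5:108434350-108434649, minus strand): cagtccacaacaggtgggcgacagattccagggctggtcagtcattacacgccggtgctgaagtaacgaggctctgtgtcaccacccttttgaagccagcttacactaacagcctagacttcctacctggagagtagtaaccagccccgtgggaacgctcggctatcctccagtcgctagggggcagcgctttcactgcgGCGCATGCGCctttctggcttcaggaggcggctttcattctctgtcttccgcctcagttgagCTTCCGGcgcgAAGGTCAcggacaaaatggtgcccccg
The capitals mark the Yy1 core in Ndufa9, which begins at base 33 after the start. In Sdhb they mark the Nrf1 core at -54 and the Gabpa core at 7, in Uqcr11 the Gabpa core at -66 and the Nrf1 core at -4, and in Cox6a1 an Nrf1 palindrome from -162 and the Gabpa core at -16. Atp5k held an Nrf1 palindrome from -50, the Gabpa core at 13 and the Esrra core at 24. The median log2 fold change in FVB at day 53 was -0.62 over the 11 tested genes with the Nrf1 core and -0.45 over the 59 without it, -0.51 over 19 with and -0.50 over 51 without the Gabpa core, -0.56 over 11 with and -0.50 over 59 without the Yy1 core, and -0.59 over 7 with and -0.50 over 63 without the Esrra core. These are descriptions of letters in a window, and no factor's binding was measured.

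After Nx the respiratory chain genes were lower in FVB kidneys at day 2 and again at day 53, with few calls at day 28 between them. In FVB at day 2, 74 of the 82 genes passed as lower and 1 as higher, where 30.0% of all genes tested passed as lower and 24.8% as higher. At day 28 the counts were 5 lower and 1 higher (8.81% of all genes lower, 7.35% higher), and at day 53 they were 77 lower and 1 higher (27.8% lower, 25.9% higher). The median over the 82 genes was -0.36, -0.05 and -0.49 at the 3 days, against medians of -0.03, -0.02 and -0.01 over all genes. In linear terms the medians at day 2 and day 53 stand for differences of -22.2% and -28.9% from the sham signal. Quantile normalisation gave 69 lower calls at day 2 and 73 at day 53 and set the members' medians at -0.17 and -0.35 relative to all genes. The share of all genes called under that scaling is not given. Single genes ranged widely at day 53, from -1.06 (Ndufaf3) to 0.76 (Cox6b2). The members were also measured more tightly than most genes, with a median SE of 0.064 against 0.12 for all genes, so that smaller differences could pass. The 6 calls of day 28 were 2 without FVB Nx mouse 7 and 3 without FVB sham mouse 1 or 4.

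In B6 kidneys fewer genes passed. At day 2, 47 genes passed as lower and 1 as higher (24.4% of all genes lower, 20.2% higher), with a median of -0.16. Without B6 Nx mouse 11 the calls were 34 in all. At day 28, 15 passed as lower and 0 as higher (9.14% of all genes lower, 9.85% higher), with a median of -0.11, and at day 53, 4 passed as lower and 0 as higher (6.68% lower, 8.03% higher), with a median of -0.05. These B6 counts depended on the scaling of the arrays. Quantile normalisation gave 34, 12 and 4 lower calls at days 2, 28 and 53, and the members' median at day 2 was then -0.11, only -0.03 relative to all genes. Shifting the arrays to 1 median gave 68, 66 and 12 lower calls, with members at -0.14, -0.09 and -0.04 relative to all genes. That shift lowered the median of all genes as well. The shares of all genes called under these scalings are not given, so the counts are not read as a result about the members. The count at day 28 was 3, 8 and 26 without B6 Nx mouse 3, 4 or 9, and 7, 27, 6 and 7 without B6 sham mouse 1, 3, 5 or 6. The count at day 53 was 0 without B6 Nx mouse 1 or 7 or without B6 sham mouse 3 or 6. The B6 shares at day 53 and the FVB shares at day 28 were near those of all genes. Of the 47 genes lower in B6 at day 2, 46 were lower in FVB at day 2 too, and 73 genes were lower in FVB at both day 2 and day 53. Atp5b alone passed as lower in all 6 Nx comparisons, while Cox6b2, Cox7c, Ndufaf2 and Ndufb6 passed as lower in none. The SEs of these last genes were 0.23, 0.19, 0.10 and 0.11, against a median of 0.064 over members, so only larger differences could pass. Cox7c was read at a mean of only 6.62. Another probe set of Ndufb6 passed for the change in FVB from day 2 to day 28, at 0.24, against 0.12 by its brightest. Groups without overlap, with every Nx kidney below every sham kidney, were found for 69 of the 82 genes in FVB at day 2 (23.7% of all genes), 75 in FVB at day 53 (24.0%) and 45 in B6 at day 2 (22.0%).

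**Figure D1:**
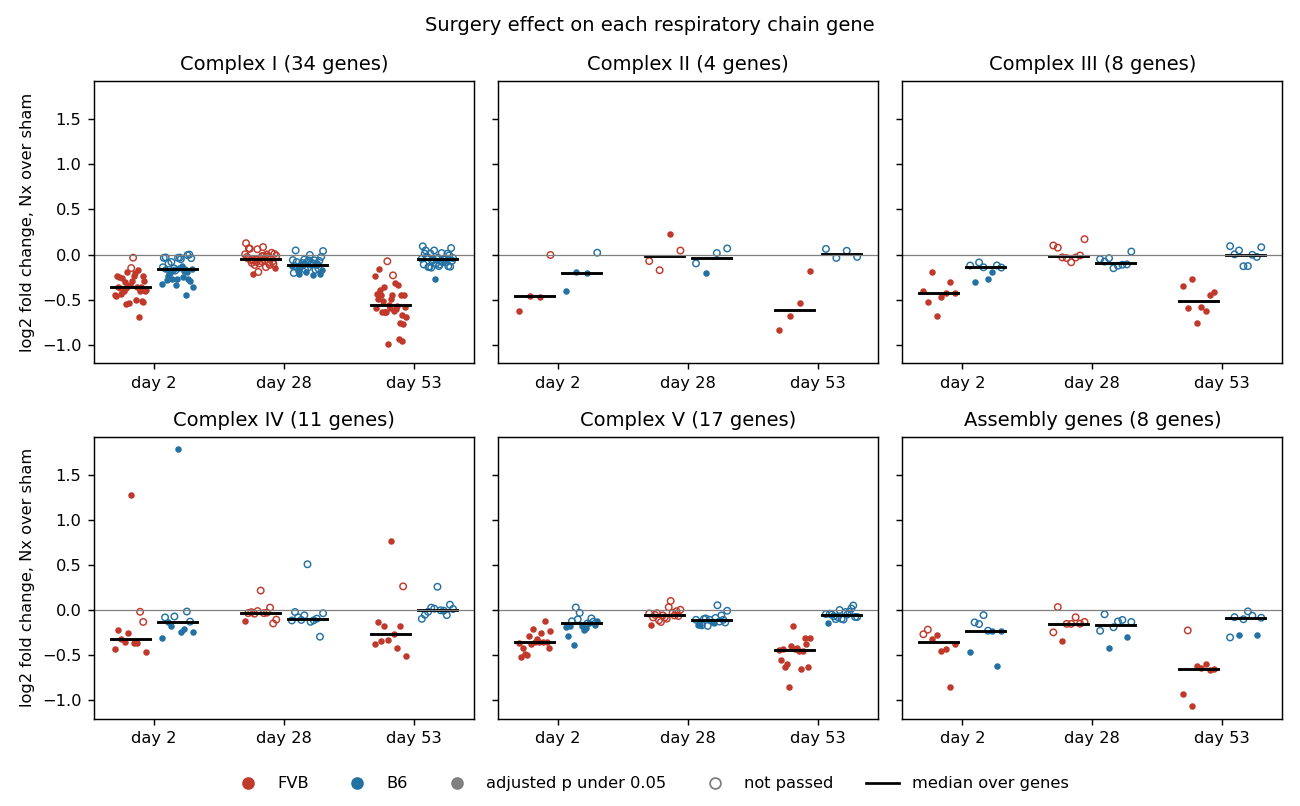
Log2 fold change of each of the 82 tested genes (Nx over sham, y axis) at days 2, 28 and 53 in FVB (red) and B6 (blue), by complex. Filled points passed an adjusted p of 0.05 and black lines are medians over genes. Nearly all FVB points lie below 0 at days 2 and 53, those of day 28 lie near 0, and Cox6b2 in complex IV is the 1 gene far above 0.

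The 82 genes were also averaged within each animal, and every animal was measured at 1 day only. As a difference from the sham mean of the same strain and day, this mean was -0.25, -0.44, -0.33 and -0.33 in the FVB Nx kidneys at day 2, against 0.00, -0.06, 0.03 and 0.02 in FVB sham kidneys. At day 28 it was -0.01, -0.08, -0.07 and -0.03 in FVB Nx and 0.03, -0.03, 0.01 and -0.01 in FVB sham kidneys, which overlapped. By day 53 it was -0.51, -0.51, -0.56 and -0.37 in FVB Nx, against -0.04, -0.04, 0.00 and 0.09 in FVB sham kidneys. All FVB Nx kidneys of day 2 and day 53 thus lay well below every sham kidney of the same day. In B6 the means were -0.13, -0.13, -0.09 and -0.27 in Nx and 0.00, -0.02, -0.03 and 0.04 in sham kidneys at day 2. They were -0.20, -0.11, -0.11 and -0.01 in Nx and 0.01, -0.12, 0.06 and 0.05 in sham kidneys at day 28, and -0.11, -0.01, -0.07 and 0.00 in Nx and -0.02, 0.02, -0.01 and 0.00 in sham kidneys at day 53. Only at day 2 were all B6 Nx kidneys below all B6 sham kidneys. The lowest B6 Nx kidney at day 2 (mouse 11, -0.27) had a pancreatic gene mean of 13.65, while the others had 3.33, 8.09 and 12.70. It also had the lowest proximal tubule mean of its group, 11.23 against 11.70 to 11.97, the lowest thick ascending limb mean, 11.21 against 11.38 to 11.77, and the highest fibroblast mean, 12.98 against 12.11 to 12.77. Its brown fat mean was 5.52, against 3.48 to 3.68 in the others, and the part of these in its value was not tested.

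**Figure D2:**
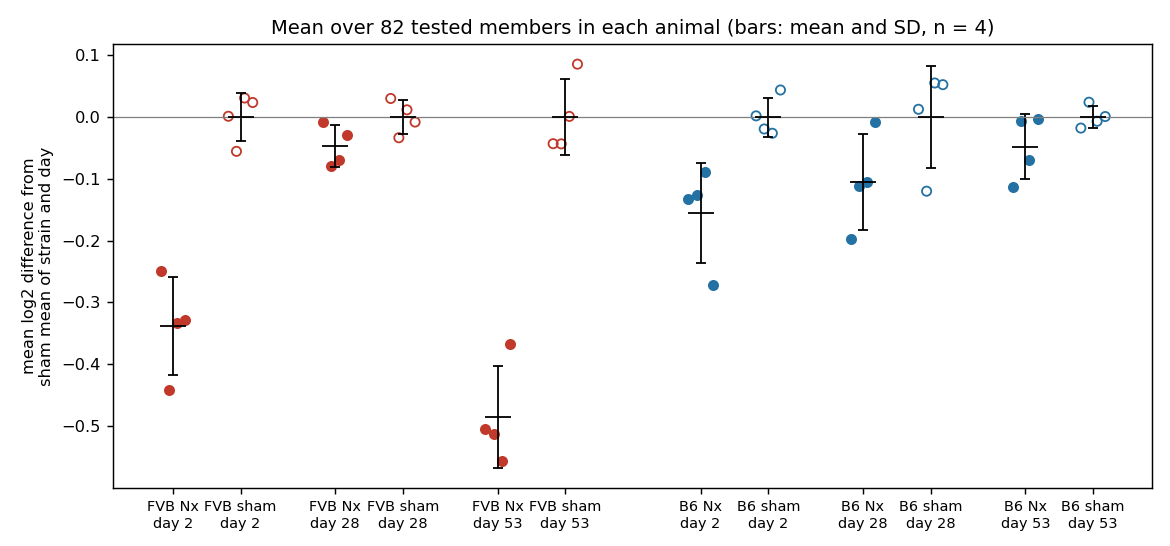
Mean over the 82 tested genes in each animal as a log2 difference from the mean of the sham animals of the same strain and day (y axis), for the 12 groups, with Nx filled and left of sham. Black marks are the mean and SD of 4 animals. The FVB Nx animals lie between -0.44 and -0.25 at day 2 and between -0.56 and -0.37 at day 53.

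Complex I takes electrons from NADH and has the most genes here, 34 tested. In FVB 32 of them passed as lower at day 2 (median -0.36), 2 at day 28 and 32 at day 53 (median -0.56), and in B6 21 passed as lower at day 2 (median -0.16), 8 at day 28 and 1 at day 53. Ndufs1, an iron-sulfur subunit of the arm that faces the matrix, had 12.13, 11.93, 12.19 and 12.24 in FVB Nx kidneys at day 2, against 12.86, 12.74, 12.79 and 12.85 in FVB sham kidneys. Its values were 12.60, 12.55, 12.58 and 12.67 in FVB Nx kidneys at day 28, against 12.68, 12.73, 12.67 and 12.69 in FVB sham kidneys. They then were 11.71, 11.83, 11.55 and 11.86 in FVB Nx kidneys at day 53, against 12.67, 12.65, 12.54 and 12.82 in FVB sham kidneys. The Nx and sham kidneys were far apart at days 2 and 53 and within 0.2 of each other at day 28. The log2 fold change was -0.69 (SE 0.069, adjusted p = 7.29e-11) at day 2 and -0.93 (SE 0.069, adjusted p = 3.02e-14) at day 53. The B6 animals had 12.17, 12.24, 12.36 and 11.998 in B6 Nx kidneys at day 2, against 12.59, 12.65, 12.64 and 12.66 in B6 sham kidneys. It fell there by 0.44 (SE 0.069, adjusted p = 1.38e-06), with no overlap. At day 28 the highest B6 Nx kidney was just below the lowest B6 sham kidney and at day 53 the groups overlapped, with log2 fold changes of -0.17 and -0.05 that did not pass.

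Ndufv1, which holds the flavin that NADH reduces, had 11.80, 11.89, 11.84 and 11.90 in FVB Nx kidneys at day 53, against 12.35, 12.27, 12.27 and 12.33 in FVB sham kidneys, without overlap. It had 12.29, 11.86, 11.94 and 12.11 in FVB Nx kidneys at day 2, against 12.35, 12.41, 12.24 and 12.39 in FVB sham kidneys, where the highest Nx kidney lay within the sham range. Its log2 fold changes were -0.30, 0.01 and -0.45 in FVB at days 2, 28 and 53 and -0.04, -0.03 and 0.07 in B6, of which FVB at day 2 and FVB at day 53 passed. Ndufs8, another iron-sulfur subunit of the path to ubiquinone, had 13.26, 13.16, 13.28 and 13.51 in FVB Nx kidneys at day 53, against 13.97, 14.02, 14.10 and 14.20 in FVB sham kidneys. Every Nx kidney there lay more than 0.4 below the lowest sham kidney. The log2 fold changes of Ndufs8 were -0.53, -0.10 and -0.77 in FVB at days 2, 28 and 53 and -0.29, -0.21 and -0.13 in B6, of which FVB at day 2, FVB at day 53, B6 at day 2 and B6 at day 28 passed. Ndufs4, a small accessory subunit of the same arm, gave -0.36, -0.04 and -0.45 in FVB at days 2, 28 and 53 and -0.01, -0.11 and 0.01 in B6, of which FVB at day 2 and FVB at day 53 passed. For Ndufab1, the mitochondrial acyl carrier protein, the values were -0.37, -0.08 and -0.63 in FVB at days 2, 28 and 53 and -0.17, -0.11 and -0.06 in B6, of which FVB at day 2, FVB at day 53 and B6 at day 2 passed. Ndufa4, an accessory subunit that is now counted with complex IV, gave -0.43, -0.06 and -0.45 in FVB at days 2, 28 and 53 and -0.24, -0.16 and -0.03 in B6, of which FVB at day 2, FVB at day 53, B6 at day 2 and B6 at day 28 passed.

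The lowest complex I values in FVB at day 53 belonged to Ndufb10, an accessory subunit of the membrane arm, with -0.99 (SE 0.081, adjusted p = 5.2e-13), and Ndufs5, another accessory subunit, with -0.96 (SE 0.085, adjusted p = 3.85e-12). Ndufb1, at -0.07, was the highest and did not pass, nor did Ndufb6 at -0.23. Ndufb1 was read at a mean of only 3.60, below the value of 5.18 used for a stricter filter. At day 2 the lowest in FVB after Ndufs1 was Ndufa9 at -0.55 (adjusted p = 2.55e-11), an accessory subunit near the ubiquinone site, and the highest was Ndufb6 at -0.04. In B6 at day 2 they were Ndufs1 and Ndufv3 (-0.36, adjusted p = 0.000832), with Ndufs7 at 0.00 as the highest.

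Complex II joins the citrate cycle to the chain and has 4 genes. Sdha, the flavoprotein that oxidises succinate, had 12.10, 11.94, 12.23 and 12.44 in FVB Nx kidneys at day 2, against 12.82, 12.68, 12.85 and 12.85 in FVB sham kidneys. Later it had 11.91, 11.89, 11.81 and 11.96 in FVB Nx kidneys at day 53, against 12.63, 12.65, 12.73 and 12.91 in FVB sham kidneys. Both sets of Nx kidneys lay below all their sham kidneys, with log2 fold changes of -0.63 (SE 0.074, adjusted p = 3.07e-09) and -0.83 (SE 0.074, adjusted p = 3.22e-12). In B6 Sdha passed at day 2 alone. It had 12.57, 12.57, 12.68 and 12.37 in B6 Nx kidneys at day 2, against 12.88, 12.96, 13.01 and 12.97 in B6 sham kidneys, without overlap, and a log2 fold change of -0.41 (SE 0.074, adjusted p = 1.96e-05). At days 28 and 53 B6 gave -0.10 and 0.06, neither past the threshold.

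The iron-sulfur subunit gene Sdhb gave -0.46, -0.17 and -0.69 in FVB at days 2, 28 and 53 and -0.19, -0.21 and -0.04 in B6, of which FVB at day 2, FVB at day 53, B6 at day 2 and B6 at day 28 passed. Sdhc, a membrane anchor, was the 1 gene of the set that passed as higher in FVB at day 28. It had 12.17, 12.15, 12.27 and 12.24 in FVB Nx kidneys at day 28, against 11.94, 11.97, 12.04 and 11.97 in FVB sham kidneys. These groups did not overlap, and the log2 fold change was 0.23 (SE 0.078, adjusted p = 0.0401). Before and after, Sdhc was lower in FVB Nx kidneys, at -0.47 (adjusted p = 3.18e-06) at day 2 and -0.53 (adjusted p = 2.63e-07) at day 53. Sdhc in B6 gave -0.21, 0.02 and 0.04, of which day 2 passed. Sdhd, the other anchor, gave 0.00, 0.04 and -0.19 in FVB at days 2, 28 and 53 and 0.02, 0.07 and -0.03 in B6, of which FVB at day 53 passed.

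Complex III had 8 genes, all of which passed as lower in FVB at day 2 (median -0.42) and at day 53 (median -0.52), with 0 at day 28 (0 lower and 1 higher at an unadjusted p under 0.05). In B6 3 passed as lower at day 2 (median -0.14), and 0 at day 28 and 0 at day 53 (2 and 1 lower at an unadjusted p under 0.05). Uqcrc1, a core subunit, had 11.99, 11.85, 12.02 and 12.25 in FVB Nx kidneys at day 2, against 12.71, 12.59, 12.82 and 12.73 in FVB sham kidneys, and its log2 fold change was -0.69 (SE 0.094, adjusted p = 7.66e-08). Later the values were 11.72, 11.80, 11.62 and 11.81 in FVB Nx kidneys at day 53, against 12.40, 12.44, 12.44 and 12.70 in FVB sham kidneys, and the log2 fold change was -0.76 (SE 0.094, adjusted p = 8.49e-09). Uqcrc1 had 12.33, 12.37, 12.41 and 12.04 in B6 Nx kidneys at day 2, against 12.28, 12.37, 12.55 and 12.52 in B6 sham kidneys, which overlapped, with a log2 fold change of -0.14 (SE 0.094, adjusted p = 0.235). The other core subunit gene, Uqcrc2, gave -0.47, -0.09 and -0.58 in FVB at days 2, 28 and 53 and -0.27, -0.12 and -0.13 in B6, of which FVB at day 2, FVB at day 53 and B6 at day 2 passed. Uqcrfs1, the Rieske iron-sulfur subunit, gave -0.42, -0.03 and -0.62 in FVB at days 2, 28 and 53 and -0.19, -0.11 and 0.00 in B6, of which FVB at day 2, FVB at day 53 and B6 at day 2 passed. Uqcr11, a small accessory subunit, was the lowest in B6 at day 2 at -0.31 (adjusted p = 0.00037) and had -0.52 in FVB. The highest in FVB was Uqcrb at -0.20 at day 2 and -0.28 at day 53, both past the threshold.

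Complex IV, cytochrome c oxidase, had 11 tested genes. As lower, 8 passed in FVB at day 2 (median -0.32), 1 at day 28 and 9 at day 53 (median -0.26), and 6 passed in B6 at day 2 (median -0.14). In B6 at days 28 and 53, 0 passed (3 and 1 lower at an unadjusted p under 0.05, and 1 higher at day 28). Cox4i1, the common form of subunit 4, had 14.36, 14.26, 14.22 and 14.34 in FVB Nx kidneys at day 2, against 14.68, 14.70, 14.81 and 14.72 in FVB sham kidneys. Later it had 14.28, 14.27, 14.29 and 14.33 in FVB Nx kidneys at day 53, against 14.66, 14.65, 14.67 and 14.69 in FVB sham kidneys, again with no overlap. The log2 fold changes of Cox4i1 were -0.43, -0.12 and -0.38 in FVB at days 2, 28 and 53 and -0.31, -0.11 and -0.10 in B6, of which FVB at day 2, FVB at day 28, FVB at day 53 and B6 at day 2 passed. Cox5a, a nuclear subunit that contacts Cox4i1 in the complex, had 14.87, 14.84, 14.81 and 14.88 in FVB Nx kidneys at day 53, against 14.94, 14.99, 14.98 and 15.01 in FVB sham kidneys, also without overlap, yet the difference was only -0.13 (SE 0.045, adjusted p = 0.0144). Over all comparisons Cox5a gave -0.22, -0.03 and -0.13 in FVB at days 2, 28 and 53 and -0.08, -0.02 and -0.05 in B6, of which FVB at day 2 and FVB at day 53 passed.

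Cox5b gave -0.32, -0.02 and -0.35 in FVB at days 2, 28 and 53 and -0.14, -0.08 and -0.02 in B6, of which FVB at day 2, FVB at day 53 and B6 at day 2 passed. The liver-type subunit gene Cox6a1 had -0.35, -0.04 and -0.18 in FVB at days 2, 28 and 53 and -0.18, -0.11 and 0.03 in B6, of which FVB at day 2, FVB at day 53 and B6 at day 2 passed. Cox6c gave -0.36, -0.03 and -0.26 in FVB at days 2, 28 and 53 and -0.25, -0.13 and 0.00 in B6, of which FVB at day 2, FVB at day 53 and B6 at day 2 passed. Cox7a2 and Cox8a, the general forms of their subunits, had the lowest complex IV values in FVB at day 53, -0.42 (adjusted p = 3.67e-09) and -0.51 (adjusted p = 5.06e-09). At day 2 they had -0.37 and -0.47 in FVB and -0.21 and -0.24 in B6, all 4 past the threshold. Cox7a2l, a protein that joins complexes III and IV in supercomplexes, gave -0.02, 0.03 and -0.18 in FVB at days 2, 28 and 53 and -0.02, -0.09 and -0.06 in B6, of which FVB at day 53 passed. Cox7c gave -0.13, -0.15 and 0.26 in FVB at days 2, 28 and 53 and -0.13, -0.30 and 0.06 in B6, none of which passed.

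Cox6b2, the testis form of subunit 6b, went the other way and was the 1 gene of the set that passed as higher at day 2 in both strains. It had 6.88, 7.05, 6.82 and 6.67 in FVB Nx kidneys at day 2, against 5.74, 5.12, 5.74 and 5.74 in FVB sham kidneys. In B6 it had 7.18, 7.13, 7.19 and 6.66 in B6 Nx kidneys at day 2, against 5.35, 5.42, 4.86 and 5.42 in B6 sham kidneys. No Nx kidney overlapped with a sham kidney in either strain, and the log2 fold changes were 1.27 (SE 0.23, adjusted p = 1.46e-05) in FVB and 1.78 (SE 0.23, adjusted p = 6.9e-08) in B6. At day 53 FVB had 6.10, 5.94, 5.74 and 6.28 in Nx, against 4.77, 4.96, 5.59 and 5.68 in sham kidneys, and a log2 fold change of 0.76 (SE 0.23, adjusted p = 0.00558). Its ubiquitous counterpart Cox6b1 passed as lower where it passed, with -0.25, -0.01 and -0.33 in FVB at days 2, 28 and 53 and -0.07, -0.06 and 0.02 in B6, of which FVB at day 2 and FVB at day 53 passed.

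**Figure D3:**
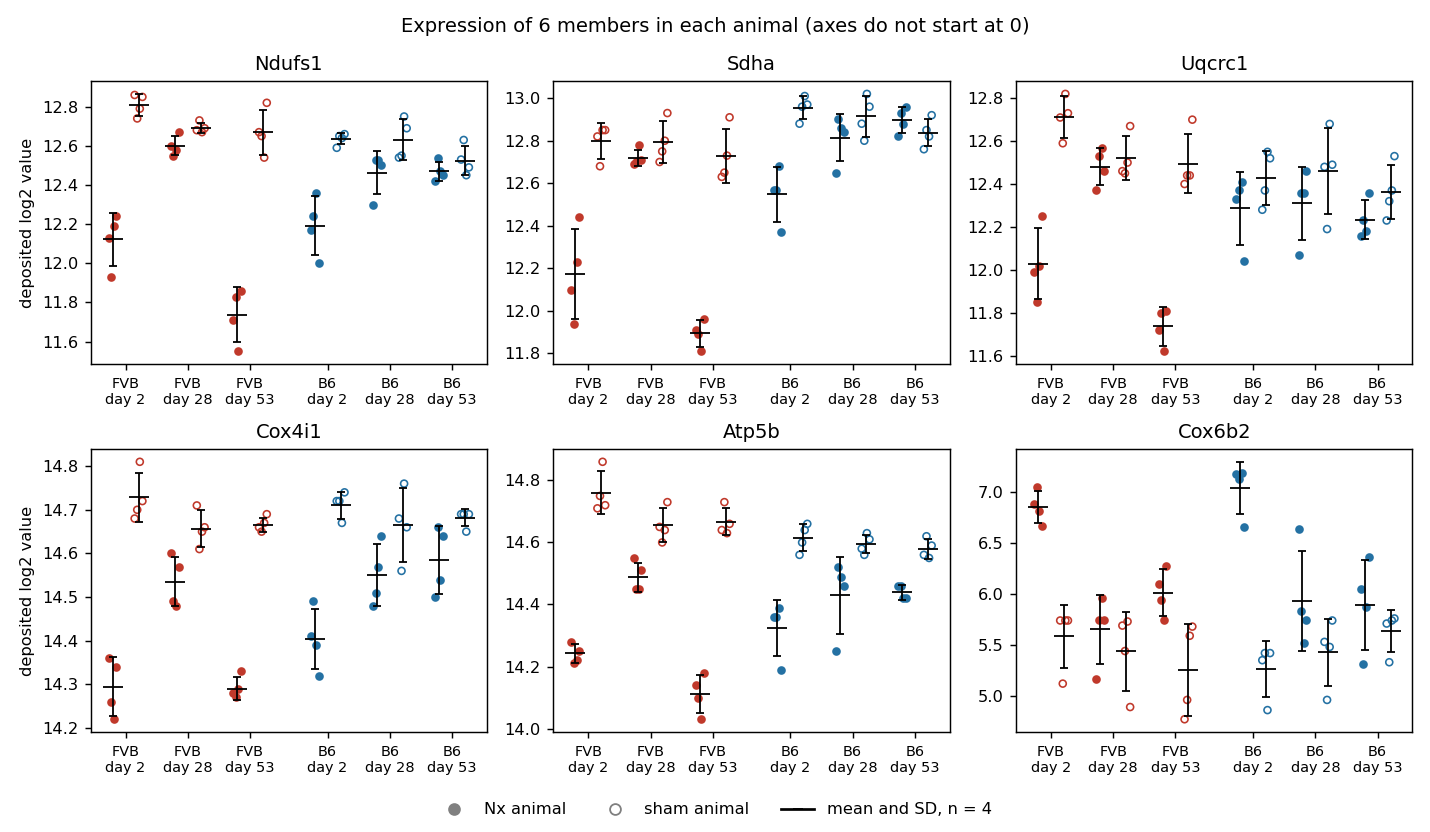
Deposited log2 values (y axis, not starting at 0) of Ndufs1, Sdha, Uqcrc1, Cox4i1, Atp5b and Cox6b2 in each animal of the 12 groups, FVB in red and B6 in blue, Nx filled and left of sham, with the mean and SD of 4 animals. The FVB Nx animals are below all their sham animals at days 2 and 53 for 5 of the genes, and above them for Cox6b2.

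ATP synthase had 17 genes, all of which passed as lower in FVB at day 2 (median -0.36) and at day 53 (median -0.45). In FVB at day 28 1 passed, and in B6 10 passed at day 2 (median -0.15), 4 at day 28 and 1 at day 53. Atp5b, the catalytic beta subunit, had 14.28, 14.21, 14.22 and 14.25 in FVB Nx kidneys at day 2, against 14.71, 14.75, 14.86 and 14.72 in FVB sham kidneys. It then had 14.55, 14.45, 14.45 and 14.51 in FVB Nx kidneys at day 28, against 14.65, 14.60, 14.64 and 14.73 in FVB sham kidneys. Last, it had 14.14, 14.10, 14.03 and 14.18 in FVB Nx kidneys at day 53, against 14.64, 14.73, 14.63 and 14.66 in FVB sham kidneys. Nx kidneys lay below all sham kidneys at each day. The log2 fold changes were -0.52 (adjusted p = 3.22e-12), -0.17 (adjusted p = 0.00776) and -0.56 (adjusted p = 4.45e-13), each with an SE of 0.045. In B6 they were -0.29 (adjusted p = 1.64e-06), -0.16 (adjusted p = 0.00818) and -0.14 (adjusted p = 0.0316).

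The alpha subunit gene Atp5a1 gave -0.37, -0.04 and -0.45 in FVB at days 2, 28 and 53 and -0.18, -0.11 and -0.04 in B6, of which FVB at day 2, FVB at day 53 and B6 at day 2 passed. Atp5c1, the gamma subunit of the turning central stalk, gave -0.42, -0.08 and -0.43 in FVB at days 2, 28 and 53 and -0.17, -0.16 and -0.04 in B6, of which FVB at day 2, FVB at day 53, B6 at day 2 and B6 at day 28 passed. Atp5o, part of the fixed stalk, gave -0.42, -0.07 and -0.63 in FVB at days 2, 28 and 53 and -0.16, -0.14 and -0.08 in B6, of which FVB at day 2, FVB at day 53 and B6 at day 2 passed. The ring that carries protons is made of identical c subunits encoded by Atp5g1, Atp5g2 and Atp5g3. Atp5g1 had 12.17, 12.21, 11.98 and 12.32 in FVB Nx kidneys at day 53, against 12.97, 12.98, 13.01 and 13.14 in FVB sham kidneys. With a log2 fold change of -0.86 (SE 0.074, adjusted p = 1.62e-12) it was the lowest gene of complex V at that day. At day 2 it had -0.28 in FVB (adjusted p = 0.00126) and 0.03 in B6 (adjusted p = 0.803). The other c subunit genes gave -0.40 (Atp5g2) and -0.18 (Atp5g3) in FVB at day 53, both past the threshold. Atp5e, in the central stalk, had -0.50 in FVB and -0.39 in B6 at day 2, where it was the lowest of complex V in B6. Atp5md, a small membrane subunit, had the highest value of complex V in FVB at day 2, -0.12, which still passed, and Atp5k, whose promoter is printed above, had -0.65 at day 53.

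The 8 Ndufaf genes gave 6 lower calls in FVB at day 2, 1 at day 28 and 7 at day 53 (median -0.65), and in B6 they gave 4, 2 and 2. Ndufaf3, an early assembly factor of complex I, had 7.84, 8.09, 8.18 and 8.24 in FVB Nx kidneys at day 53, against 9.03, 9.08, 9.35 and 9.13 in FVB sham kidneys, and its log2 fold change of -1.06 (SE 0.093, adjusted p = 2.5e-12) was the lowest of all 82 genes. It passed as lower at day 28 in both strains, at -0.34 in FVB (adjusted p = 0.00822) and -0.42 in B6 (adjusted p = 0.00104). Ndufaf1, which helps to build the membrane arm, had 7.57, 7.80, 7.75 and 8.50 in FVB Nx kidneys at day 53, against 8.73, 8.66, 8.86 and 9.05 in FVB sham kidneys. Mouse 10 stood well above the other Nx kidneys there, and the log2 fold change was -0.92 (SE 0.13, adjusted p = 1.08e-07). Ndufaf7, a methyltransferase that acts on a complex I subunit, was the lowest gene at day 2 in FVB, at -0.85 (SE 0.093, adjusted p = 6.35e-10), and in B6, at -0.62 (SE 0.093, adjusted p = 8.56e-07). Ndufaf2 gave -0.22, 0.03 and -0.23 in FVB at days 2, 28 and 53 and -0.14, -0.05 and -0.08 in B6, none of which passed. Ndufaf5 had -0.46 in FVB at day 2, past the threshold.

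In the comparisons with few calls the values of each complex had these ranges. In FVB at day 28 they ran from -0.21 (Ndufa6, passed) to 0.13 (Ndufa10) in complex I, from -0.17 (Sdhb) to 0.23 (Sdhc, passed) in complex II and from -0.09 (Uqcrc2) to 0.17 (Uqcrq) in complex III. They ran from -0.15 (Cox7c) to 0.22 (Cox6b2) in complex IV, from -0.17 (Atp5b, passed) to 0.10 (Atp5k) in complex V and from -0.34 (Ndufaf3, passed) to 0.03 (Ndufaf2) in the Ndufaf genes. Most of these ranges straddled 0, and Sdhc and Cox6b2 stood at the top of their complexes. In B6 at day 28 they ran from -0.23 (Ndufb9, passed) to 0.05 (Ndufa2) in complex I, from -0.21 (Sdhb, passed) to 0.07 (Sdhd) in complex II and from -0.15 (Uqcrc1) to 0.03 (Uqcrq) in complex III. They ran from -0.30 (Cox7c) to 0.51 (Cox6b2) in complex IV, from -0.17 (Atp5g2) to 0.05 (Atp5k) in complex V and from -0.42 (Ndufaf3, passed) to -0.05 (Ndufaf2) in the Ndufaf genes. The Ndufaf genes were all below 0 here, and Cox6b2 was again the highest gene without passing. In B6 at day 53 they ran from -0.27 (Ndufb10, passed) to 0.09 (Ndufa10) in complex I, from -0.04 (Sdhb) to 0.06 (Sdha) in complex II and from -0.13 (Uqcrc1) to 0.09 (Uqcr10) in complex III. They ran from -0.10 (Cox4i1) to 0.26 (Cox6b2) in complex IV, from -0.14 (Atp5b, passed) to 0.05 (Atp5mpl) in complex V and from -0.30 (Ndufaf1) to -0.01 (Ndufaf5) in the Ndufaf genes. Here the calls were Ndufb10, Atp5b, Ndufaf3 and Ndufaf7 alone.

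The difference between the strains was tested as the FVB effect minus the B6 effect. At day 53, 71 of the 82 genes passed with a more negative effect in FVB and 0 with a less negative one, where 14.9% of all genes passed as lower. The median difference was -0.45, against 0.01 over all genes. The smallest p-values belonged to Ndufs1 at -0.88 (SE 0.10, adjusted p = 1.35e-08), Sdha at -0.90 (SE 0.10, adjusted p = 3.8e-08) and Uqcrfs1 at -0.62 (SE 0.077, adjusted p = 1.38e-07). Ndufa9 at -0.56 and Ndufc1 at -0.52 followed. The calls were 31 of 34 in complex I, 3 of 4 in complex II, 8 of 8 in complex III, 6 of 11 in complex IV, 16 of 17 in complex V and 7 of 8 Ndufaf genes. The 11 genes that did not pass were Ndufa12, Ndufb1, Ndufb6, Sdhd, Cox5a, Cox6a1, Cox6b2, Cox7a2l, Cox7c, Atp5g3 and Ndufaf2.

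**Figure D4:**
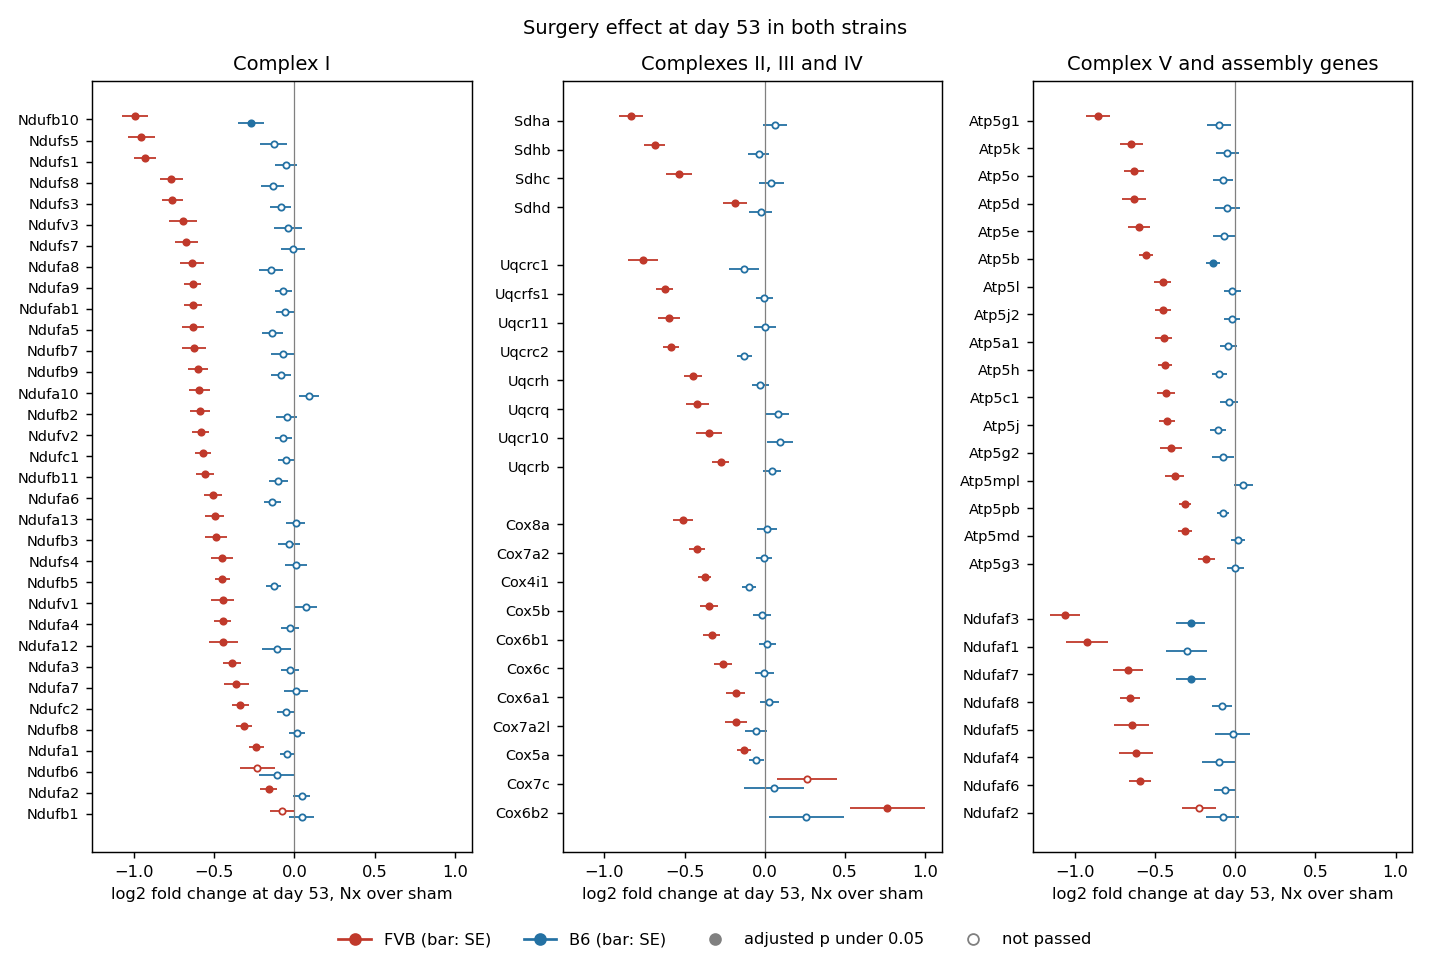
Log2 fold change at day 53 (Nx over sham, x axis) of each of the 82 tested genes in FVB (red, upper) and B6 (blue, lower), with SE bars and filled points for an adjusted p under 0.05. The FVB points lie left of the B6 points for 80 of the 82 genes.

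At day 2 the strain difference was smaller and passed for fewer genes. All but 1 of the 82 genes had a lower value in FVB than in B6, but only 6 passed as lower and 0 as higher (2.14% of all genes lower), with a median of -0.20. They were Uqcrc1 at -0.54 (SE 0.13, adjusted p = 0.0114), Ndufs4 at -0.36, Ndufa10 at -0.32, Ndufa9 at -0.28, Ndufv2 at -0.25 and Atp5b at -0.23. This count rested on single animals of day 2. It was 21, 2, 2 and 1 without B6 Nx mouse 11, 3, 5 or 9, 15, 1 and 10 without FVB Nx mouse 1, 2 or 5, 2, 2 and 3 without B6 sham mouse 1, 2 or 4, and 1 without FVB sham mouse 4. At day 28, 0 of the 82 genes passed in limma (0.129% of all genes in either direction), and 1 had an unadjusted p under 0.05. The smallest p there belonged to Ndufa1, with a difference of 0.13 (SE 0.065, adjusted p = 1), and next to Ndufa10, at 0.19.

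The course over time was tested by subtracting the Nx effect of 1 day from that of the next. In FVB from day 2 to day 28, 56 genes passed with an effect that became less negative and 1 (Cox6b2) with an effect that became lower, where 12.8% of all genes passed as higher. The median change was 0.31. Ndufa1 changed by 0.46 (SE 0.065, adjusted p = 2.24e-06), Ndufa9 by 0.49, Ndufa10 by 0.59, Sdhc by 0.69 and Ndufs1 by 0.60. From day 28 to day 53, 72 genes passed in the opposite direction and 0 as higher (12.6% of all genes lower), with a median of -0.45. Ndufs1 changed by -0.84 (SE 0.10, adjusted p = 4.73e-08), Ndufc1 by -0.57, Ndufs5 by -0.97, Ndufa10 by -0.72 and Ndufa9 by -0.58. These contrasts share the day 28 animals. Of the 77 genes lower at day 53, 66 lay further from 0 than at day 2, a difference that was not tested itself.

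In B6, 3 genes passed from day 2 to day 28 (8.86% of all genes in either direction). Cox6b2 changed by -1.27 (SE 0.33, adjusted p = 0.0102), Ndufv3 by 0.40 (SE 0.12, adjusted p = 0.0344) and Cox4i1 by 0.19 (SE 0.060, adjusted p = 0.0347). The next smallest p-values, of Atp5e at 0.29 and Sdha at 0.31, missed the threshold. The count was 9 without B6 Nx mouse 3 of day 28, 6 without B6 Nx mouse 9 of day 2, 5 without B6 sham mouse 5 of day 28, and 1 without B6 Nx mouse 11 of day 2, B6 Nx mouse 5 or 9 of day 28, B6 sham mouse 1, 2 or 5 of day 2 or B6 sham mouse 3 of day 28. From day 28 to day 53, 0 of the 82 genes passed in limma, as did 0.0% of all genes. At an unadjusted p under 0.05 there were 0 of the 82 and 405 of all genes. The smallest p belonged to Atp5mpl, with 0.16, and to Sdhb, with 0.17.

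In sham kidneys over all days, FVB and B6 differed both ways. As lower in FVB 15 genes passed (15.6% of all genes) and as higher 18 (16.9%), with a median of 0.01, so the shares were near those of all genes. Ndufs5 had 10.17, 10.24, 10.33 and 10.16 in FVB sham, against 11.61, 11.40, 11.36 and 11.48 in B6 sham kidneys at day 2, and its log2 difference over all days was -1.30 (SE 0.049, adjusted p = 1.08e-23). Ndufaf1 had 8.45, 8.63, 8.60 and 8.95 in FVB sham, against 9.84, 9.72, 9.84 and 9.96 in B6 sham kidneys at day 2, and a difference of -1.18 (SE 0.075, adjusted p = 1.74e-16). These stood apart by more than 1 log2 unit, while the other 31 called genes lay between -0.45 (Ndufa12) and 0.30 (Sdhc). Ndufs5 and Ndufaf1 have only 1 single-symbol probe set each, so their differences could not be compared with another probe set. Ndufa3 at -0.33 and Ndufv3 at -0.43 were among the 5 with the smallest p. The probe sets of a gene did not always match here. Ndufa12 had -0.45 by its brightest probe set but 0.38 and 0.31 by 2 others that passed, and Ndufs4 had 0.21 by its brightest but -0.34 and -0.41 by 2 others, the second with a mean of only 2.38.

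For the surgery effects, other probe sets of the same genes mostly gave the same direction. There were 77 other kept probe sets of 48 genes. In FVB at day 53, 75 of them belonged to called genes, 74 of these had the same sign and 67 also passed. At day 2 in FVB, 72 belonged to called genes, 68 had the same sign and 60 passed, and in B6 at day 2 the counts were 47, 46 and 33. None passed in the opposite direction in these 3 comparisons. In the comparisons with few calls fewer passed, 0 of 3 in FVB and 2 of 12 in B6 at day 28. For the strain difference, 0 of 6 passed at day 2, with 5 of the same sign, and 53 of 66 at day 53. There 1 probe set of Ndufs4 passed the other way, at 0.58, with a mean of only 2.38. All these counts cover called genes only. For the strain difference at day 2, the uncalled gene Ndufv1 passed by other probe sets, at -0.54 and -0.34, against -0.26 by its brightest. Atp5pb, also uncalled, passed by another at -0.27, against -0.12 by its brightest. Uncalled genes passed by dimmer probe sets in B6 too. At day 53 these were Ndufb8 at -0.65, Ndufab1 at -0.61 and Ndufs4 at -0.58. Their brightest probe sets gave 0.02, -0.06 and 0.01. At day 28 they were Uqcrc2 at -0.24, Ndufb5 at -0.16 and Ndufs4 at -0.35, against -0.12, -0.07 and -0.11 by their brightest. This probe set of Ndufs4 had a mean of only 2.38. Sdha fell by 0.83 in FVB at day 53 by its brightest probe set and by another, and Ndufs4 fell by 1.48 by a dimmer probe set against 0.45 by its brightest.

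Other mitochondrial genes passed as lower in the same comparisons. Of 15 citrate cycle genes, which feed it with NADH and succinate, 14 were lower in FVB at day 2 and 15 at day 53 (medians -0.46 and -0.65), and 11 were lower and 1 higher in B6 at day 2 (median -0.22). Examples at day 53 in FVB are Ogdh at -0.93, Dld at -0.83 and Idh3b at -0.81. Of 9 electron carrier genes, 7 were lower in FVB at day 2 and 9 at day 53, among them Coq9, which serves ubiquinone synthesis, at -1.04. Cyc1, a complex III subunit outside the symbols used here, had -0.34 and -0.68 in FVB at days 2 and 53, both past the threshold. Of 39 assembly factors, which include the 8 Ndufaf genes, 26 were lower in FVB at day 2, and 36 were lower and 1 higher at day 53, for example Cox11 at -0.81 and Uqcc1 at -1.24. Of 7 carrier and pore genes 4 and 6 were lower at those days.

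Of 76 mitochondrial ribosome genes, 59 were lower and 3 higher in FVB at day 2, 63 lower and 1 higher at day 53, and 32 lower and 6 higher in B6 at day 2. The cytosolic ribosome genes, which are abundant but not mitochondrial, mostly passed as higher in the values as deposited. Of 44 tested, 30 were higher and 1 lower in FVB at day 2, 31 higher and 1 lower at day 53, and 21 higher and 1 lower in B6 at day 2, where 24.8%, 25.9% and 20.2% of all genes passed as higher. They had medians of 0.21, 0.23 and 0.14. The medians of day 2 turned to -0.04 in FVB and -0.03 in B6 when the arrays were shifted to 1 median, where all genes stood at -0.27 and -0.19.

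Among 16 regulators of mitochondrial genes most passed as lower at day 2 in both strains and at day 53 in FVB. In FVB 11 were lower and 2 higher at day 2, 6 lower at day 28, and 13 lower and 2 higher at day 53, and in B6 12 were lower and 2 higher at day 2, 7 lower at day 28 and 4 lower at day 53. Ppargc1a gave -1.09, -0.51 and -1.47 in FVB and -0.54, -0.69 and -0.45 in B6 at the 3 days, all past the threshold. Unlike most subunit genes it was therefore lower at day 28 in both strains and at day 53 in B6. Esrra, whose core is shown above, gave -0.73 and -1.30 in FVB at days 2 and 53 and -0.65 and -0.58 in B6 at days 2 and 28, all 4 past the threshold. Its relative Esrrb had -2.84 in FVB at day 53, and Gabpb1, the partner of Gabpa, had -2.19 in FVB and -1.75 in B6. Nrf1 itself was higher in the values as deposited, at 0.36 in FVB and 0.35 in B6 at day 2, both past the threshold. A shift to 1 median lowered the median of all genes at day 2 in both strains, as given above. The values of Nrf1 are given as deposited only.

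**Figure D5:**
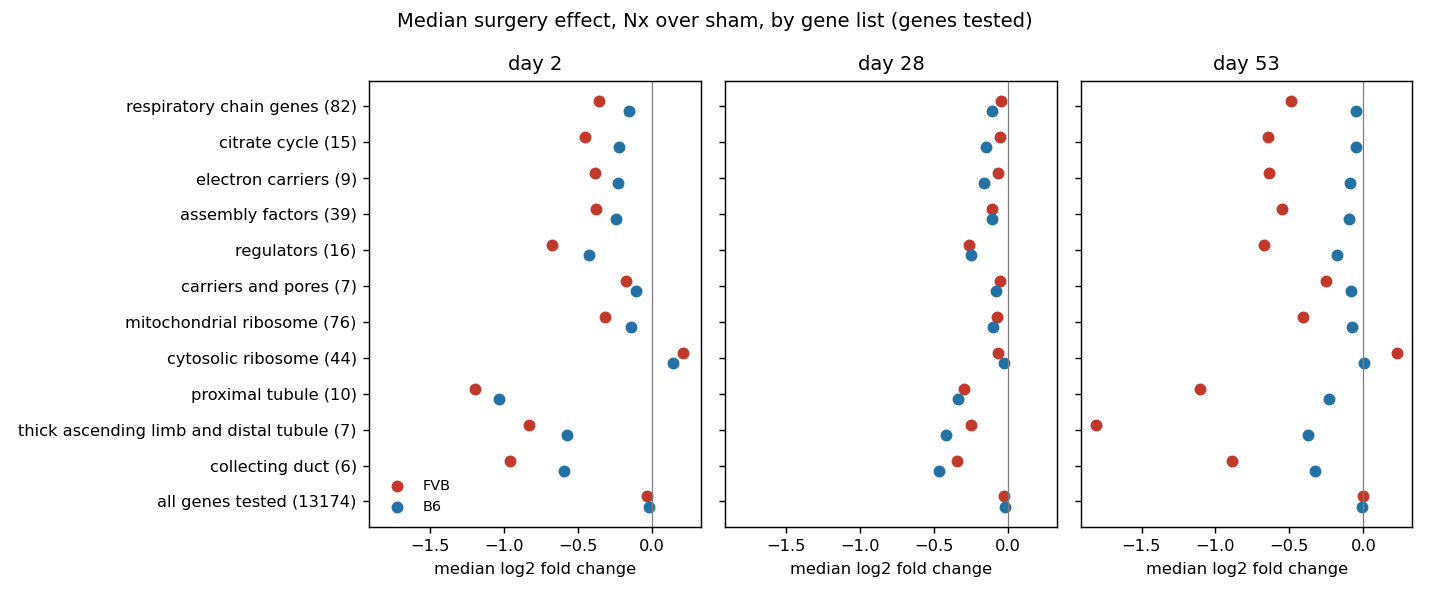
Median log2 fold change (Nx over sham, x axis) of the respiratory chain genes, 10 other gene lists and all genes tested, at days 2, 28 and 53, with FVB in red above B6 in blue. The number of genes tested is in brackets. The cytosolic ribosome medians of day 2 lie above 0 in the values as deposited (-0.04 in FVB and -0.03 in B6 after a shift to 1 median), where the mitochondrial lists lie below 0.

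Markers of nephron segments and of other cell types moved in the same comparisons. Of 10 proximal tubule genes, 9 were lower in FVB at day 2 and 8 lower and 1 higher at day 53 (medians -1.20 and -1.10). Their mean per array was 11.63 to 12.14 in FVB Nx, against 12.78 to 12.88 in FVB sham kidneys at day 53. In B6 8 were lower at day 2 (median -1.04), and at day 53 4 were lower and 3 higher (median -0.23). The 7 thick ascending limb and distal tubule genes were 7 lower in FVB at day 2 and 6 lower at day 53, with means of 9.93 to 10.84 in Nx and 12.25 to 12.35 in sham kidneys at day 53. Of 6 collecting duct genes, 6 were lower in FVB at day 2 and 5 at day 53. All 8 macrophage and all 7 fibroblast genes were higher in FVB at days 2 and 53, and the 8 macrophage genes had means of 10.00 to 10.60 in Nx and 6.35 to 6.85 in sham kidneys at day 53. The part that the make-up of cells has in the fall of the respiratory chain genes was not tested.

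Pancreatic RNA bears on some counts. With the arrays above the pancreatic limit left out, 1 FVB Nx and 1 B6 Nx array remained at day 2 and 2 of each at day 53. The lower calls were then 49 in FVB at day 2 (median -0.27), 72 in FVB at day 53 (median -0.47) and 15 in B6 at day 2 (median -0.15), where each lone array is taken to vary like the other groups. With the pancreatic mean as a covariate they were 71, 76 and 39. Markers of brown fat, a tissue rich in mitochondria, were detected as well. Their mean at day 2 was 3.51 to 8.10 in FVB Nx and 6.11 to 8.07 in FVB sham kidneys, and 3.48 to 5.52 in B6 Nx and 5.95 to 7.66 in B6 sham kidneys. Of the 4 tested 2 were lower in FVB and 4 in B6 at that day. At day 53 their mean was 4.36 to 5.61 in FVB Nx and 4.54 to 7.22 in FVB sham kidneys, and 1 of 4 was lower. The list includes Cox7a1 and Cox8b, complex IV genes left out by the rule, so its mean partly holds genes of the same chain. These complex IV genes did not move together in FVB at day 53, and values of the other members of the list are not given here. At day 53 Cox7a1 averaged 7.75 in FVB Nx and 9.64 in FVB sham kidneys, while Cox8b averaged 8.05 and 7.92. Group means of Cox7a1 ran from 7.75 to 10.32. With the brown fat and skeletal muscle means as covariates the lower calls were 72 in FVB at day 2, 74 in FVB at day 53 and 37 in B6 at day 2. Without the FVB Nx arrays whose skeletal muscle mean was raised (chosen after seeing the data), 71 genes were lower in FVB at day 53. The shares of all genes called are not given for the fits of this paragraph. Ckm, a gene of the muscle list, stayed at 2.34 on all FVB arrays of day 53.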

How the data were processed

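Whole-kidney RNA of 48 mice was measured on Affymetrix arrays, 4 per group, from frozen tissue per the labels' protocols. The values of 45101 probe sets were deposited on a log2 scale, going by their range, and 32.057% of them share the lowest value. The submitters' processing notes name MAS5 without a role, and how the authors corrected background and normalised is not given in the sources used here. The number of arrays limits the precision.

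The log2 values were used as deposited. Probe sets were named by the platform annotation: 34958 had 1 gene symbol and 932 had several, while it lists no entry for 9211. Controls (64) were not used. Each probe set had to pass the 40th percentile (2.28) on at least 4 arrays, and the brightest remaining probe set stood for its gene, which gave 13174 genes. limma 3.58.1 (R 4.3.3, lmFit, contrasts.fit, eBayes with trend) fitted 12 group means, with 36 residual degrees of freedom. There were 14 contrasts, two-sided, adjusted by Benjamini-Hochberg. The test was checked on simulated data with known changes, for the contrast of FVB at day 2 only. Of 100 genes changed by 0.5 it recovered 77, and of 100 changed by 1 it recovered 96, each time with 10 false calls. Genes were named from a rule: per complex and Nx contrast the 2 lowest and the highest, the 5 smallest p in other contrasts, subunits of known role, and up to 3 genes per list by smallest p. Genes named beyond that, among them the regulators given, were chosen after their values were seen. Ribosomal S6 kinases, which share the Rps symbol, were left out of the cytosolic ribosome. The genes, lists and tests were chosen with earlier results of these data known. Alternatives were other scalings, filters, variance models, probe set rules, fits and left-out arrays. Python 3.11.15, pandas 2.3.3 and matplotlib 3.10.9 served for tables and plots.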

Additional observations from a re-analysis of the deposited data

Results flagged for a closer look

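Of 252 checks of 4 animals of a group, over 7 gene sets and 14 genes, 21 had an animal far from the other 3, by a gap above Dixon's limit for 4 values. Chance alone gives such a gap in about 1 of 20 groups. Among set means, as log2 differences from the sham mean, the animals were as follows. In B6 Nx day 2, complex III averaged -0.29 in mouse 11, with the others between -0.14 and -0.13. In B6 Nx day 2, complex V averaged -0.25 in mouse 11, with the others between -0.13 and -0.12. In B6 sham day 28, complex V averaged -0.12 in mouse 3, with the others between 0.02 and 0.05. In B6 sham day 53, complex V averaged 0.047 in mouse 3, with the others between -0.02 and -0.01. In FVB Nx day 28, assembly genes averaged -0.22 in mouse 7, with the others between -0.14 and -0.13. In FVB sham day 53, complex V averaged 0.081 in mouse 6, with the others between -0.04 and -0.02. Among the log2 values of single genes the gaps were small in most cases. Ndufs1 was 12.30 in B6 Nx day 28 mouse 3, with the others between 12.50 and 12.53. Ndufv1 was 12.48 in B6 sham day 53 mouse 1, with the others between 12.32 and 12.34. Sdha was 12.68 in FVB sham day 2 mouse 2, with the others between 12.82 and 12.85. Sdhc was 11.55 in FVB Nx day 2 mouse 2, with the others between 11.75 and 11.77. Uqcrc1 was 12.70 in FVB sham day 53 mouse 6, with the others between 12.40 and 12.44. Cox4i1 was 14.65 in B6 sham day 53 mouse 5, with the others at 14.69. Cox5a was 15.12 in FVB sham day 28 mouse 4, with the others between 15.03 and 15.05. Cox6b2 was 6.66 in B6 Nx day 2 mouse 11, with the others between 7.13 and 7.19. Cox6b2 was 4.86 in B6 sham day 2 mouse 4, with the others between 5.35 and 5.42. Cox6b2 was 5.33 in B6 sham day 53 mouse 3, with the others between 5.71 and 5.76. Cox6b2 was 5.12 in FVB sham day 2 mouse 2, with the others at 5.74. Atp5b was 14.19 in B6 Nx day 2 mouse 11, with the others between 14.36 and 14.39. Atp5g1 was 12.79 in B6 sham day 28 mouse 3, with the others between 12.99 and 13.03. Ndufaf3 was 8.84 in FVB Nx day 2 mouse 1, with the others between 8.63 and 8.66. Ndufaf3 was 8.50 in FVB Nx day 28 mouse 7, with the others between 8.72 and 8.75. At day 2 B6 Nx mouse 11 and FVB sham mouse 2 each recur. At day 28 B6 sham mouse 3 and FVB Nx mouse 7 recur, and at day 53 B6 sham mouse 3 and FVB sham mouse 6. The counts without these B6 animals and without FVB Nx mouse 7 are given above. Without FVB sham mouse 6 the count for FVB at day 53 was 76, the lowest on leaving out 1 animal.

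Effects that differed between strains or days, by limma's test of the difference, were 6 genes at day 2 and 71 at day 53 between FVB and B6, 57 in FVB between days 2 and 28, 72 in FVB between days 28 and 53, and 3 in B6 between days 2 and 28. Among the genes with values per animal, the FVB minus B6 difference at day 2 passed for Uqcrc1 (-0.54) and Atp5b (-0.23). At day 53 it passed for Sdha (-0.90), Ndufs1 (-0.88), Ndufs5 (-0.83), Ndufaf3 (-0.78), Atp5g1 (-0.76), Ndufs8 (-0.63), Uqcrc1 (-0.63), Ndufaf1 (-0.62), Sdhc (-0.58), Ndufv1 (-0.52), Atp5b (-0.42) and Cox4i1 (-0.28).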

How the results depend on the processing

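Counts of the 82 genes past the threshold were recomputed under each alternative. The share of all genes called is not set beside them. Of 188 counts, leaving out single animals aside, 156 were within 1.5 times the main count, which includes every count for FVB at days 2 and 53, for the strain difference at day 53, for FVB from day 28 to 53 and for the strains in sham kidneys. The other 32 were these, and their causes were not tested. Without arrays that held pancreatic transcripts, which leaves fewer animals, the counts were 0 for FVB and 26 for B6 at day 28, 16 for B6 at day 2, 0 for B6 at day 53, 0 and 1 for the strain difference at days 2 and 28, 21 for FVB from day 2 to 28 and 0 for B6 from day 2 to 28. With the pancreatic mean as a covariate they were 3 for FVB and 6 for B6 at day 28 and 2 for B6 at day 53. With brown fat and muscle as covariates they were 2 for B6 at day 53 and 1 for B6 from day 2 to 28. Arrays shifted to 1 median gave 66 and 12 for B6 at days 28 and 53, 1 for the strain difference at day 2 and 1 for B6 from day 2 to 28. Arrays shifted to 1 75th percentile gave 3 for FVB at day 28, 2 for B6 at day 53 and 1 for B6 from day 2 to 28. The median shift moved the median of all genes to -0.27 and -0.20 in FVB at days 2 and 53 and to -0.19, -0.19 and -0.13 in B6 at days 2, 28 and 53. Relative to that, the members' medians were -0.33 and -0.49 in FVB and -0.14, -0.09 and -0.04 in B6. It turned the FVB calls at day 28 to 6 lower and 0 higher, and those in sham kidneys to 9 lower and 17 higher in FVB. Quantile normalisation gave 15 lower and 11 higher there, and moved the median of all genes in FVB at day 2 to -0.12, with the members at -0.30, -0.17 relative to it. In B6 at day 2 it left 34 lower calls, with the members at -0.03 relative to all genes. Array weights gave 10 for FVB at day 28, 11 for B6 at day 53, 10 for the strain difference at day 2 and 12 for B6 from day 2 to 28. Fitting only the arrays of a comparison gave 1 for B6 at day 28, 0 for the strain difference at day 2 and 1 for B6 from day 2 to 28. The mean over probe sets gave 8 for B6 at day 53 and 5 for B6 from day 2 to 28, where a stricter filter gave 6.

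Leaving out each animal gave 70 to 75, 2 to 5 and 76 to 80 for FVB at days 2, 28 and 53, and 34 to 49, 3 to 27 and 0 to 6 for B6. The strain difference gave 1 to 21, 0 to 0 and 69 to 74, the changes in FVB 50 to 59 and 68 to 72, those in B6 1 to 9 and 0 to 0, and the sham strains 28 to 34. The animals behind the widest ranges are named beside those counts.

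Mouse numbers recur in Nx and sham groups. Deviations of same-numbered animals correlated between -0.251 and 0.378 over 10 pairs, and others between -0.577 and 0.469, so the numbers were not taken as pairs. With the number as a random replicate block the counts were 10 for the strain difference at day 2 and 5 for B6 from day 2 to 28, with all others within 1.5 times. Of 12311 repeats of called effects of single genes, 11560 kept their call, 749 lost it and 2 changed sign, in sham kidneys with the mean over probe sets: Ndufa12 at 0.07 and Ndufs4 at -0.08.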
